A study of Mus musculus with 58 samples.

Results

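The genes described here are 9 inhibitors of the RAS-ERK signalling cascade: the dual-specificity phosphatases Dusp1, Dusp4, Dusp5, Dusp6 and Dusp14, the Sprouty genes Spry2 and Spry4, and their relatives Spred1 and Spred2. They were chosen by name as feedback regulators of ERK, with earlier results of these data known. They were matched by gene symbol to the 18088 genes of the deposited table. Counts of called genes, here and in the lists below, are therefore descriptions and no independent test. All 9 were found, and all 9 passed the filter on low values that kept 17925 genes for testing.

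RNA was sequenced from the prefrontal cortex of 58 C57BL/6J mice on postnatal day 25. Drug was given from postnatal day 3 to day 24 through the milk of the dam. HT-labelled mice carried 1 altered copy of Tanc2, which encodes a scaffold protein of synapses, and WT mice carried none. Within each genotype the pups received lithium, an inhibitor of GSK3, fluoxetine, an inhibitor of serotonin reuptake, or vehicle. The 6 arms were HT lithium (n = 9), HT fluoxetine (n = 10), HT vehicle (n = 10), WT lithium (n = 10), WT fluoxetine (n = 10) and WT vehicle (n = 9), with 30 females and 28 males in all. Dose, litter and the altered stretch of Tanc2 are not given in the labels used here. Pups of 1 dam share their exposure, so p-values that treat mice as independent may be too small.

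Growth factor and neurotransmitter receptors pass their signal through RAS, RAF and MEK to the kinase ERK, which enters the nucleus and switches on immediate early genes. Several of the genes that ERK switches on encode its own brakes. DUSP proteins remove the activating phosphates from ERK and its relatives, Sprouty proteins act further upstream between receptor and RAF, and SPRED proteins bring neurofibromin to the membrane, where it turns RAS off. In cortical neurons the RNA of such feedback genes is widely read as a trace of recent ERK activity, and Dusp1 RNA also answers to glucocorticoids and to other stress kinases.

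Promoter sequence was available from RefSeq for 7 of the 9 genes, covering 250 bases before the start site and 50 after it. It is shown for the phosphatases that were lower under fluoxetine in at least 1 genotype. Textbook routes from ERK and calcium to immediate early genes run through CREB and SRF, and their sites are marked. Capitals mark the CREB site TGACGTCA and its shorter core TGACG, on either strand, and the CArG box, to which SRF binds.
Dusp1, chr17:26508423-26508722, minus strand: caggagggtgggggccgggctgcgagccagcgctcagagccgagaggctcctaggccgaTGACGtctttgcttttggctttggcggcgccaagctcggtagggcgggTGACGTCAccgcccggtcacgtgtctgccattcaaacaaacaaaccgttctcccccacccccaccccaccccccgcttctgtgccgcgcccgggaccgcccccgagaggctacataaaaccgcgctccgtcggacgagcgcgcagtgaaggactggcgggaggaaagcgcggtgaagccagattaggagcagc
Dusp5, chr19:53528895-53529194, plus strand: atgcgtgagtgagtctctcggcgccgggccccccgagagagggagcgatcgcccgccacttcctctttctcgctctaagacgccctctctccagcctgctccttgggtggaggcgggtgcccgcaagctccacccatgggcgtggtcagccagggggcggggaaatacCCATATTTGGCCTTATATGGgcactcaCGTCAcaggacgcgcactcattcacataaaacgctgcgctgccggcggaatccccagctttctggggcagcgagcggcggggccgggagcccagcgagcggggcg
Dusp6, chr10:99262981-99263280, plus strand: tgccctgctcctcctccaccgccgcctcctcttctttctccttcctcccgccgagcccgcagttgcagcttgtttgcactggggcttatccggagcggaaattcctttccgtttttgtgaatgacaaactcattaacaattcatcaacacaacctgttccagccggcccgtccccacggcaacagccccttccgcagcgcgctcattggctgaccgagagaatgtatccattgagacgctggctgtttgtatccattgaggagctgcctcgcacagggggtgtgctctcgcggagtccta

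Coordinates refer to GRCm38.p6. The Dusp1 window held 1 full TGACGTCA, whose first base lay 143 bases before the start site, and a separate TGACG core 191 bases before it. The full site is found in 1.79% of the 32851 RefSeq mouse promoters of this length, and the core, which every full site contains on both strands, in 20.8%. Dusp5 held 2 adjoining CArG boxes, 82 and 72 bases before the start, and a TGACG core at 55 bases. CArG boxes are found in 1.63% of promoters. The Dusp6 window held none of these letters. Of the other 4 genes with a sequence, Spred2 held a TGACG core 51 bases before its start. The AP-1 letters TGANTCA, the ETS letters CCGGAAG, the EGR letters GCGTGGGCG and GCGGGGGCG, the TATA letters TATAAA and the palindromic glucocorticoid response element were searched on both strands and matched none of the 7 windows. The shares of all promoters holding them were 7.81%, 8.86%, 0.612%, 2.91%, 13.6% and 0.00913%, in that order. A match describes letters only.

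Recovered read totals ran from 23270000 to 37800000 per library, with a median of 27910000. Tanc2 itself was not lower in the HT-labelled arms. It averaged 7953 ± 853 normalized reads in HT lithium, 8061 ± 463 in HT fluoxetine and 8093 ± 381 in HT vehicle, against 7468 ± 355 in WT lithium, 7529 ± 439 in WT fluoxetine and 7541 ± 387 in WT vehicle mice (SD). Reads over the whole gene therefore do not check the genotype labels. Markers of cortical excitatory neurons such as Slc17a7 were present in every library. A second feature sets libraries apart. Reads of Gm10221, a predicted gene, were present in each of the 19 mice given lithium. They were also present in 5 of 5 HT females and 3 of 5 WT females given fluoxetine, and in none of the other 31 libraries. In the 27 libraries with such reads, the mitochondrial transcript mt-Atp6 averaged 52088 normalized reads, against 23274 in the others. For lithium against vehicle this feature and the drug cannot be told apart. Nor can they for fluoxetine against vehicle in HT females.

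The feedback genes covered a wide range of abundance. Per kilobase of exon, Dusp14 was the most abundant with a mean of 867 normalized reads over the 58 libraries, followed by Spred1 with 811, Spred2 with 679 and Dusp6 with 623. Spry2 averaged 460, Dusp1 178, Dusp5 98.5, Dusp4 83.7 and Spry4 73.3 reads per kilobase. Dusp14, an atypical small phosphatase, thus stood above 91.9% of tested genes, while Spry4 stood above 44.6%. Some transcript stretches of 31 bases also occur in other genes, namely 3.40% of those of Dusp14, 4.20% of Spred2 and 0.878% of Spry2, which makes the values of these genes uncertain to that extent. Dusp5 overlaps the antisense gene AC137853.2 and Dusp1 overlaps Ergic1 on the opposite strand, and no source used here says whether counting used strand, so reads of the overlapping stretches cannot be told apart. AC137853.2 averaged 6.29 normalized reads, against 244 for Dusp5, and Ergic1 averaged 3564, against 589 for Dusp1. Neither AC137853.2 nor Ergic1 passed the test in any drug comparison.

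**Figure D1:**
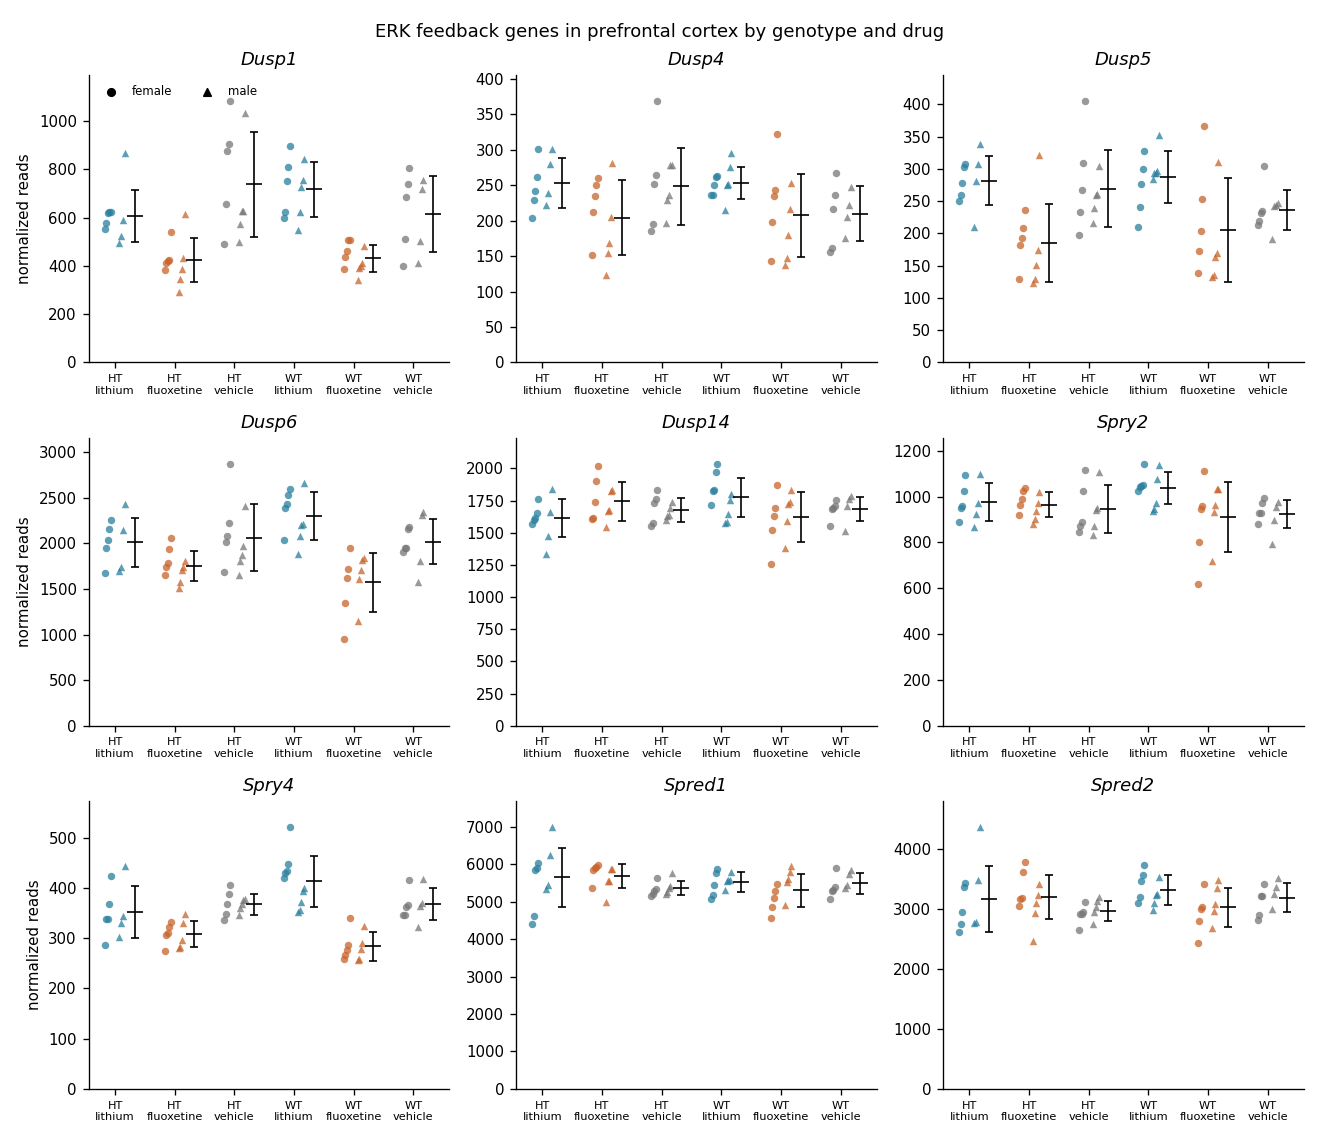
Normalized reads (vertical axis, linear from 0) of each of the 9 genes in every mouse, by arm, with circles for females and triangles for males. Bars give the mean and SD of the arm. Dusp1 ran from 292 to 616 in HT fluoxetine mice, against 493 to 1083 in HT vehicle mice, and Spred1 overlapped broadly in all arms.

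The comparison of fluoxetine with vehicle asks whether 3 weeks of exposure changed these brakes. In HT-labelled mice Dusp1, Dusp5 and Spry4 fell, and the other 6 genes did not pass the test. This count of 3 of 9, all lower, stands beside 374 lower genes of 17925, or 2.09%, with 1.46% higher and 3.54% in either direction. In WT mice Spry4 and Dusp6 fell, 2 of 9, beside 0.915% lower, 0.469% higher and 1.38% in either direction over all genes. Spry4 was thus the gene called in both genotypes, in a comparison of each genotype with its own vehicle mice. In bulk tissue, fewer cells of a type and less RNA per cell cannot be told apart.

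Dusp1 encodes a nuclear phosphatase of p38, JNK and ERK and is itself an immediate early gene, located at chr17:26505590-26562128 of GRCm38. It had 292, 415 and 616 normalized reads (lowest, median and highest) in HT fluoxetine mice, against 493, 641 and 1083 in HT vehicle mice. All 10 HT fluoxetine mice lay below the mean of HT vehicle mice, and 8 of 10 lay below the lowest of them, while 7 of 10 vehicle mice lay above the highest treated one, so the ranges overlapped in few mice. The difference was -0.77 ± 0.13 on the log2 scale (SE), a fold of 0.59, with an adjusted p of 0.000259 (limma). In WT mice Dusp1 had 340, 423 and 506 reads under fluoxetine, against 401, 686 and 805 under vehicle. Again all 10 fluoxetine mice lay below the vehicle mean, and 3 lay below the lowest vehicle mouse. The WT difference of -0.47 ± 0.14 had an adjusted p of 0.0801 in limma and did not pass. DESeq2 called it (adjusted p = 0.0363), as did limma without WT vehicle female 1 or male 3 (0.0232 or 0.0277). The other alternatives left it uncalled. In limma with only the libraries without Gm10221 reads it was -0.45 ± 0.18 (adjusted p = 0.388). The effect in HT minus that in WT was -0.30 ± 0.19 (95% interval -0.69 to 0.09, adjusted p = 0.798), so a difference between genotypes was not shown.

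Dusp5 encodes a nuclear phosphatase specific to ERK and lies at chr19:53529109-53542431. Its reads were 124, 179 and 322 in HT fluoxetine mice, against 198, 260 and 405 in HT vehicle mice. Of the treated mice 7 of 10 lay below the lowest vehicle mouse, and 1 vehicle mouse lay above all treated ones. The difference was -0.57 ± 0.15 (fold 0.67, adjusted p = 0.0179). In WT mice Dusp5 had 132, 171 and 367 reads under fluoxetine, against 191, 235 and 305 under vehicle. Here 6 of 10 treated mice lay below and 2 above the whole vehicle range, and the difference of -0.28 ± 0.15 did not pass (adjusted p = 0.55). In HT mice the Dusp5 call was lost without HT fluoxetine female 4 (adjusted p = 0.0511) or without HT vehicle female 3 (adjusted p = 0.0525).

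Dusp6 encodes the cytoplasmic phosphatase of ERK that many tissues use as an ERK readout, and lies at chr10:99263231-99267489. Its reads were 1508, 1741 and 2055 in HT fluoxetine mice, against 1653, 1991 and 2869 in HT vehicle mice. All 10 treated mice lay below the vehicle mean, yet 8 of them lay within the vehicle range, and the difference of -0.22 ± 0.10 had an adjusted p of 0.217. In WT mice the reads were 953, 1665 and 1945 under fluoxetine, against 1572, 1952 and 2348 under vehicle, with 5 vehicle mice above every treated one. The difference was -0.38 ± 0.10 (fold 0.77, adjusted p = 0.0303). This WT call was lost in 7 of 19 fits that left out 1 library: WT fluoxetine female 3, female 4 or male 5, or WT vehicle female 4, female 5, male 1 or male 4. The adjusted p was then between 0.0595 and 0.111. The effect in HT minus that in WT was 0.16 ± 0.14 (95% interval -0.11 to 0.44).

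Spry4 encodes a Sprouty protein that limits signalling from receptor tyrosine kinases. It had 275, 308 and 349 reads in HT fluoxetine mice, against 337, 369 and 405 in HT vehicle mice. Of the treated mice 9 of 10 lay below the lowest vehicle mouse, and 7 of 10 vehicle mice lay above the highest treated one. The difference was -0.26 ± 0.06 (fold 0.84, adjusted p = 0.0116). With presence of Gm10221 reads as a term in limma it was -0.21 and did not pass (adjusted p = 0.153). In WT mice Spry4 had 257, 278 and 341 reads under fluoxetine, against 322, 365 and 417 under vehicle. Below the whole vehicle range lay 8 of 10 treated mice, and the difference was -0.38 ± 0.06 (fold 0.77, adjusted p = 0.000237). The effect in HT minus that in WT was 0.12 ± 0.09 (95% interval -0.06 to 0.30).

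The remaining 5 genes did not pass in either genotype. Dusp4, a nuclear phosphatase of ERK and JNK, averaged 204 ± 53.0 reads in HT fluoxetine and 248 ± 54.4 in HT vehicle mice (SD, n = 10 each), a difference of -0.30 ± 0.13 with an adjusted p of 0.217. In WT mice its difference was -0.05 ± 0.14. Spry2, the second Sprouty gene, differed by 0.03 ± 0.07 in HT and by -0.03 ± 0.07 in WT mice, with 95% intervals of -0.10 to 0.17 and -0.17 to 0.11. Dusp14 differed by 0.05 ± 0.05 and -0.06 ± 0.06, Spred1 by 0.08 ± 0.05 and -0.06 ± 0.05, and Spred2 by 0.10 ± 0.07 and -0.08 ± 0.07 (HT, then WT). Over the 9 genes the median difference was -0.22 in HT mice and -0.08 in WT mice, beside 0.003 and 0.0004 over all tested genes.

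In each sex the fluoxetine differences had the same direction for the called genes. Dusp1 differed by -0.84 ± 0.19 in HT females and -0.69 ± 0.19 in HT males, and Spry4 by -0.26 ± 0.09 and -0.25 ± 0.09. In WT mice Spry4 differed by -0.37 ± 0.09 in females and -0.39 ± 0.09 in males. In this fit of all groups Dusp1 in HT females (adjusted p = 0.00897) and Spry4 in WT females (adjusted p = 0.0382) passed, and neither gene did in males. When 1 sex was fitted alone, with at most 5 mice per arm, Dusp1 in HT females was the one fluoxetine call. Gm10221 reads were present in 5 of 5 HT fluoxetine females and in 0 of 5 HT vehicle females. In HT females that feature and fluoxetine therefore cannot be told apart. None of the 36 tests of females minus males over the 9 genes and 4 drug effects passed in limma. The smallest p was that of Spry4 under lithium in WT mice, with a difference of 0.26 ± 0.13. A further fit held only the libraries without Gm10221 reads, with sex as a term. Its HT fluoxetine mice were 5 males, against 5 females and 5 males given vehicle. There Dusp1 differed by -0.73 ± 0.20, Dusp5 by -0.62 ± 0.20 and Spry4 by -0.25 ± 0.07 in HT mice. None passed the threshold (adjusted p = 0.104, 0.209 and 0.153 in limma). In WT mice Spry4 still fell there, by 0.35 ± 0.06 on the log2 scale (adjusted p = 0.00266), while Dusp6 differed by -0.24 ± 0.10 (adjusted p = 0.490).

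**Figure D2:**
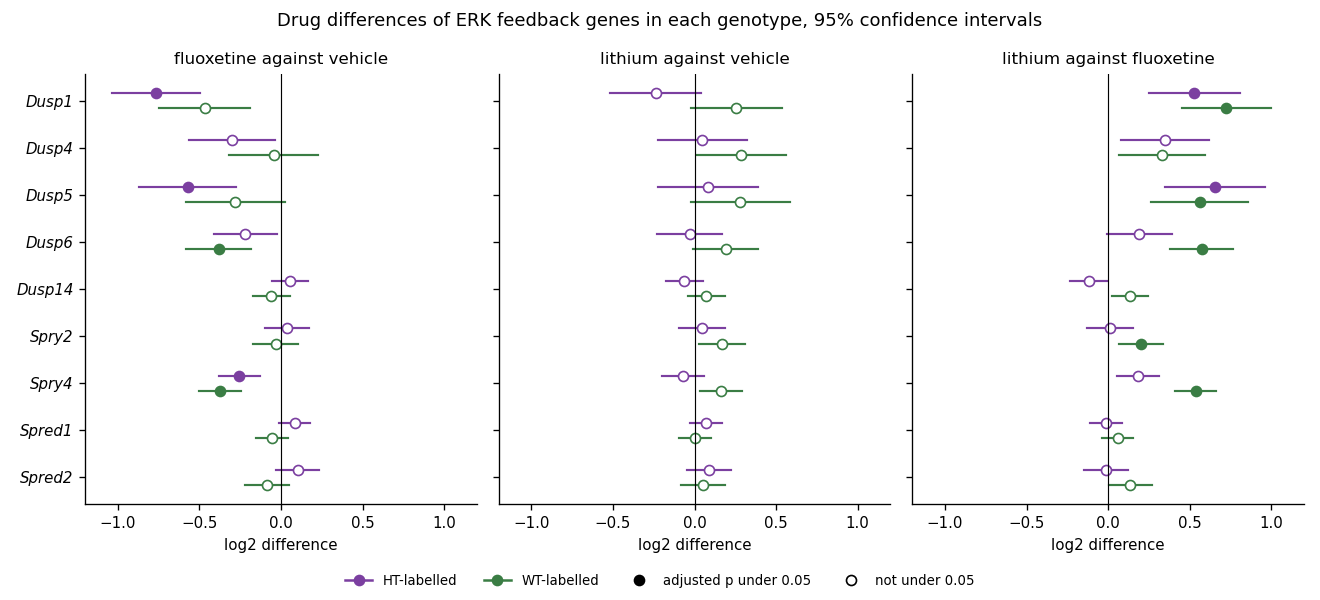
Log2 differences (horizontal axis) with 95% confidence intervals for each gene, HT-labelled mice above WT mice, in 3 panels for fluoxetine against vehicle, lithium against vehicle and lithium against fluoxetine. Filled points passed an adjusted p of 0.05. Dusp1 lies at -0.77 in HT and -0.47 in WT mice under fluoxetine, and no lithium point against vehicle is filled.

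Lithium against vehicle asks the same question for the second drug. None of the 9 genes passed in HT-labelled mice, where 16.3% of all tested genes did (8.25% higher and 8.03% lower). None passed in WT mice, where 7.47% did (4.34% higher and 3.13% lower). By an unadjusted p under 0.05 the counts of feedback genes were 0 in HT and 3 in WT mice, beside 5219 and 3673 of all 17925 genes. DESeq2 and edgeR called none either. The 2 sets of vehicle mice are the same ones that served for fluoxetine, so the comparisons are not independent of those above. In WT mice all 9 differences were above 0, with a median of 0.17, beside -0.006 over all genes. Spry4 had 352, 410 and 521 reads in WT lithium mice, against 322, 365 and 417 in WT vehicle mice, with 5 of 10 treated mice above the whole vehicle range. Its difference of 0.16 ± 0.06 had an adjusted p of 0.121. Spry2 had 940, 1044 and 1142 reads in WT lithium mice, against 794, 928 and 993 in WT vehicle mice. Above the highest vehicle mouse lay 7 of 10 treated mice, and the difference of 0.17 ± 0.07 had an adjusted p of 0.139. Spry2 passed when the fit held only these 2 arms (adjusted p = 0.0172), as did Dusp5 (0.28 ± 0.15 in the fit of all groups, adjusted p = 0.0353 in the smaller one). That smaller fit called 1936 genes in all, against 1339 in the fit of all groups.

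In HT-labelled mice the lithium differences lay between -0.24 and 0.09, with 5 above 0 and 4 below it. Dusp1 had 495, 590 and 869 reads in HT lithium mice, against 493, 641 and 1083 in HT vehicle mice, a difference of -0.24 ± 0.14. In WT mice it had 549, 738 and 895 reads under lithium, against 401, 686 and 805 under vehicle, a difference of 0.26 ± 0.14. The lithium effect in HT minus that in WT was -0.49 ± 0.20 for Dusp1 and -0.23 ± 0.09 for Spry4, each with an adjusted p of 0.647 in limma. In all, 7 of the 9 genes had a value below 0. Under lithium, HT mice differed from WT mice in Spry4 by -0.23 ± 0.06, with 287, 338 and 445 reads in HT lithium mice, against 352, 410 and 521 in WT lithium mice. That difference had an unadjusted p of 0.000763 and an adjusted p of 0.155. None of the 17925 genes (0%) passed in limma for HT against WT under any arm, nor for either difference of effects. The numbers with an unadjusted p under 0.05 were 814 under vehicle, 1114 under fluoxetine and 2006 under lithium, and 1128 and 1196 for the fluoxetine and lithium effects. DESeq2 called 3, 2, 14, 2 and 4 genes and edgeR 0 in these 5 tests, and no feedback gene was among them. Feedback genes with an unadjusted p under 0.05 numbered 0, 1, 3, 1 and 2.

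Set directly against each other, lithium mice had higher levels of several feedback genes than fluoxetine mice. In HT-labelled mice Dusp5 and Dusp1 were higher, 2 of 9, beside 3.19% higher, 3.06% lower and 6.25% in either direction over all genes. In WT mice Spry4, Dusp6, Dusp1, Dusp5 and Spry2 were higher, 5 of 9, beside 5.29% higher, 4.26% lower and 9.55% in either direction. These differences are taken between treated mice only, the same ones as in the tests above, while the error is estimated over all groups, vehicle mice included. The WT difference was 0.54 ± 0.06 for Spry4 (fold 1.45, adjusted p = 3.27e-08), 0.73 ± 0.13 for Dusp1 (fold 1.65, adjusted p = 0.000221) and 0.57 ± 0.10 for Dusp6 (fold 1.49, adjusted p = 4.54e-05). All 10 WT lithium mice had more Spry4 and more Dusp1 than every WT fluoxetine mouse, with lowest values of 352 and 549 reads under lithium, against highest values of 341 and 506 under fluoxetine. Dusp5 was higher by 0.65 ± 0.15 in HT and 0.56 ± 0.15 in WT mice (adjusted p = 0.00582 and 0.00936), and Dusp1 by 0.53 ± 0.14 in HT mice (adjusted p = 0.0156). Spry2 in WT mice, at 0.20 ± 0.07, lay close to the threshold (adjusted p = 0.0460). It passed neither in DESeq2 (0.0509) nor in edgeR (0.0604), nor in limma with only these 2 arms (0.160) or after quantile normalization (0.0652). It was also lost without WT fluoxetine female 3, female 4, male 3 or male 5, without any of the 5 WT lithium females, or without WT lithium male 1, male 3 or male 4 (adjusted p between 0.0502 and 0.143).

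Presence of Gm10221 reads moves with this comparison, as all lithium mice and only 8 of 20 fluoxetine mice had them. Those 8 were all females, 5 HT and 3 WT, whereas the lithium mice were of both sexes. A fit within the libraries that had them, with sex as a term, thus rests on 3 WT fluoxetine females. In it Spry4, Dusp1 and Dusp6 were higher in WT lithium than in WT fluoxetine mice, as were Spry2 and Dusp14. Dusp5 differed by 0.13 (adjusted p = 0.703 in limma). In HT mice Dusp1 differed by 0.49 and Dusp5 by 0.54 within them, and neither passed (adjusted p = 0.145 and 0.183). With HT lithium male 1 left out, the HT difference of Dusp1 had an adjusted p of 0.0525.

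Ordered by mean, Dusp1 was highest in HT vehicle (737 ± 219), then WT lithium (718 ± 115), WT vehicle (615 ± 158), HT lithium (609 ± 108), WT fluoxetine (432 ± 55.7) and HT fluoxetine (425 ± 92.2). Only the step between HT lithium and WT fluoxetine was wider than the larger SD of the 2 arms. In the other 8 genes no step between neighbouring arms was, which makes 44 of 45 steps within the spread between mice. The lowest arm of Spry4 was WT fluoxetine (284 ± 28.7) and the highest WT lithium (413 ± 50.3).

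**Figure D3:**
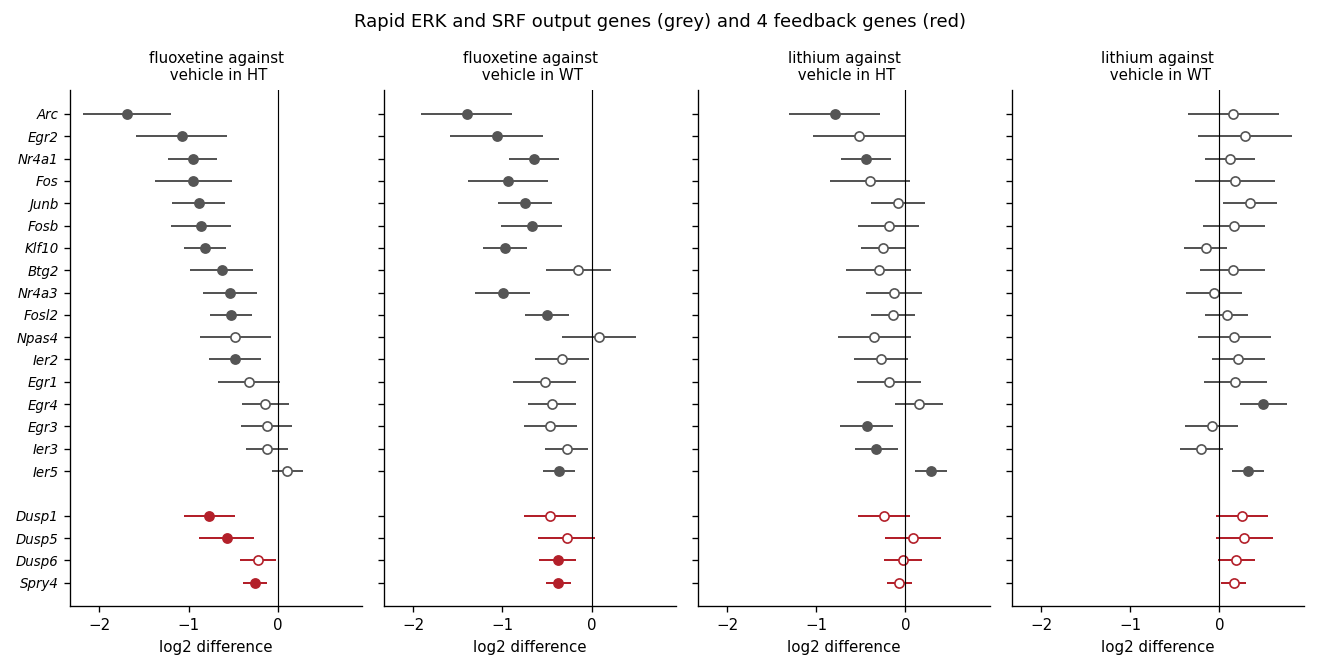
Log2 differences (horizontal axis, the same in all panels) with 95% confidence intervals for 17 rapid ERK and SRF output genes in grey and for Dusp1, Dusp5, Dusp6 and Spry4 in red, in 4 panels for each drug against vehicle in each genotype. Filled points passed an adjusted p of 0.05. Under fluoxetine 16 of 17 grey points lie below 0 in either genotype, with Arc lowest.

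Other parts of the pathway were read from lists. The rapid output list holds 17 immediate early genes that ERK, SRF and CREB switch on within minutes, such as Fos, Egr1 and Arc, none of them a feedback gene of the set. Under fluoxetine 11 of 17 fell in HT-labelled mice and 10 of 17 in WT mice, with 0 higher and medians of -0.53 in both, beside 2.09% and 0.915% lower over all genes. Arc, which encodes a regulator of AMPA receptor trafficking, had 636, 1084 and 2772 reads in HT fluoxetine mice, against 2011, 3715 and 6148 in HT vehicle mice. It fell by 1.70 ± 0.24 in HT and by 1.40 ± 0.25 in WT mice on the log2 scale (adjusted p = 4.56e-06 and 0.000432). Nr4a1, an orphan nuclear receptor, fell by 0.95 ± 0.13 in HT and 0.64 ± 0.13 in WT mice. Junb, an AP-1 subunit, fell by 0.89 ± 0.14 and 0.75 ± 0.15, and the repressor Klf10 by 0.82 ± 0.11 and 0.97 ± 0.12. Egr1, often taken as the standard ERK target, differed by -0.32 ± 0.17 and -0.53 ± 0.17 and did not pass (adjusted p = 0.322 and 0.138). Under lithium 1 gene of the list rose and 4 fell in HT mice, and 2 rose and 0 fell in WT mice, beside 8.25% higher and 8.03% lower over all genes in HT and 4.34% and 3.13% in WT mice. Ier5 rose in both genotypes, by 0.29 ± 0.08 and 0.32 ± 0.08, and Egr4 in WT mice by 0.49 ± 0.13. Among the 4 that fell in HT lithium mice, Nr4a1 differed by -0.45 ± 0.13, Arc by -0.79 ± 0.25 and Egr3 by -0.44 ± 0.14. Their adjusted p values in limma were 0.0161, 0.0216 and 0.0282.

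Other lists of the pathway are read against all tested genes, of which fluoxetine called 3.54% in HT and 1.38% in WT mice and lithium 16.3% and 7.47%. Under fluoxetine none of 23 genes of the RAS-RAF-MEK-ERK core and none of 13 RAS exchange factors and GAPs passed in either genotype. Of 23 growth factor ligands Pdgfa rose in HT mice (0.16 ± 0.04), of 17 receptors Kdr rose in HT mice (0.34 ± 0.09), and of 19 ERK effectors Mknk2 fell in HT mice (by 0.13 ± 0.04). Of 16 further phosphatases and feedback inhibitors, Errfi1, an inhibitor of the EGF receptor, fell in HT mice by 0.22 ± 0.05 and in WT mice by 0.19 ± 0.05 (adjusted p = 0.00373 and 0.0295). Of 14 kinases of the JNK and p38 branches, Map2k3 fell in WT mice by 0.24 ± 0.06. These few calls over all the lists are near the share of all genes. Under lithium in HT mice 1 core gene rose and 6 fell, among them the adaptors Shc1, Shc2, Shc3 and Frs2. There 2 RAS regulators fell, as did 3 receptors, with Igf1r lowest in p (-0.22 ± 0.05). The counts of 2 of 13 regulators and 3 of 17 receptors that fell stand beside 8.03% lower and 16.3% in either direction over all genes. Dusp2, a phosphatase outside the set, rose by 0.79 ± 0.17 in HT lithium mice (adjusted p = 0.000726). In WT lithium mice Ksr1 rose and Araf fell among the core genes, and 0 of the 16 further inhibitors passed.

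Dusp1 is also a glucocorticoid target, so 13 other glucocorticoid-responsive genes were read, Errfi1 again among them. Under fluoxetine 2 rose and 4 fell in HT mice, and 4 rose and 3 fell in WT mice, beside 1.46% higher and 2.09% lower over all genes in HT and 0.469% and 0.915% in WT mice. Per1, a clock gene, fell by 0.65 ± 0.06 in HT and 0.45 ± 0.06 in WT mice, whereas Hif3a rose by 0.78 ± 0.15 in WT mice. Under lithium 3 rose in HT and 6 in WT mice with 0 lower in either, beside 8.25% and 4.34% higher over all genes, and Fkbp5, a chaperone of the receptor, rose by 0.59 ± 0.13 and 0.64 ± 0.13. The part of this list in the Dusp1 values was not tested.

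Apart from the drugs, the feedback genes varied from mouse to mouse in 2 opposite sets. Group means were removed and Pearson's r was taken over the 58 libraries for all 36 pairs, with permutation within groups. By r, 19 of 36 pairs had an adjusted p under 0.05, of which 11 were positive, and 15 by Spearman's rho. Dusp6 and Spry2 varied together (r = 0.84, rho = 0.74, adjusted p = 7.2e-05 by r and 0.00012 by rho, from the smallest p that 100000 permutations can give). So did Dusp14 and Spry2 (r = 0.75, rho = 0.64) and Dusp6 and Dusp14 (r = 0.66, rho = 0.54). Dusp4 and Dusp5 also went together (r = 0.78, rho = 0.76) but ran against the first 3 genes. Dusp5 against Spry2 had an r of -0.67 and a rho of -0.61, and Dusp4 against Dusp14 an r of -0.59 and a rho of -0.58. Spred1 and Spred2 formed a pair (r = 0.71, rho = 0.62). Without the 2 libraries farthest from the median of the first gene these r values were 0.77, 0.65, 0.54, 0.76, -0.65, -0.58 and 0.68, in the order given. In the 27 libraries with Gm10221 reads and the 31 without, Dusp6 with Spry2 had an r of 0.71 and 0.89, Dusp4 with Dusp5 of 0.77 and 0.83, and Dusp5 with Spry2 of -0.66 and -0.63.

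**Figure D4:**
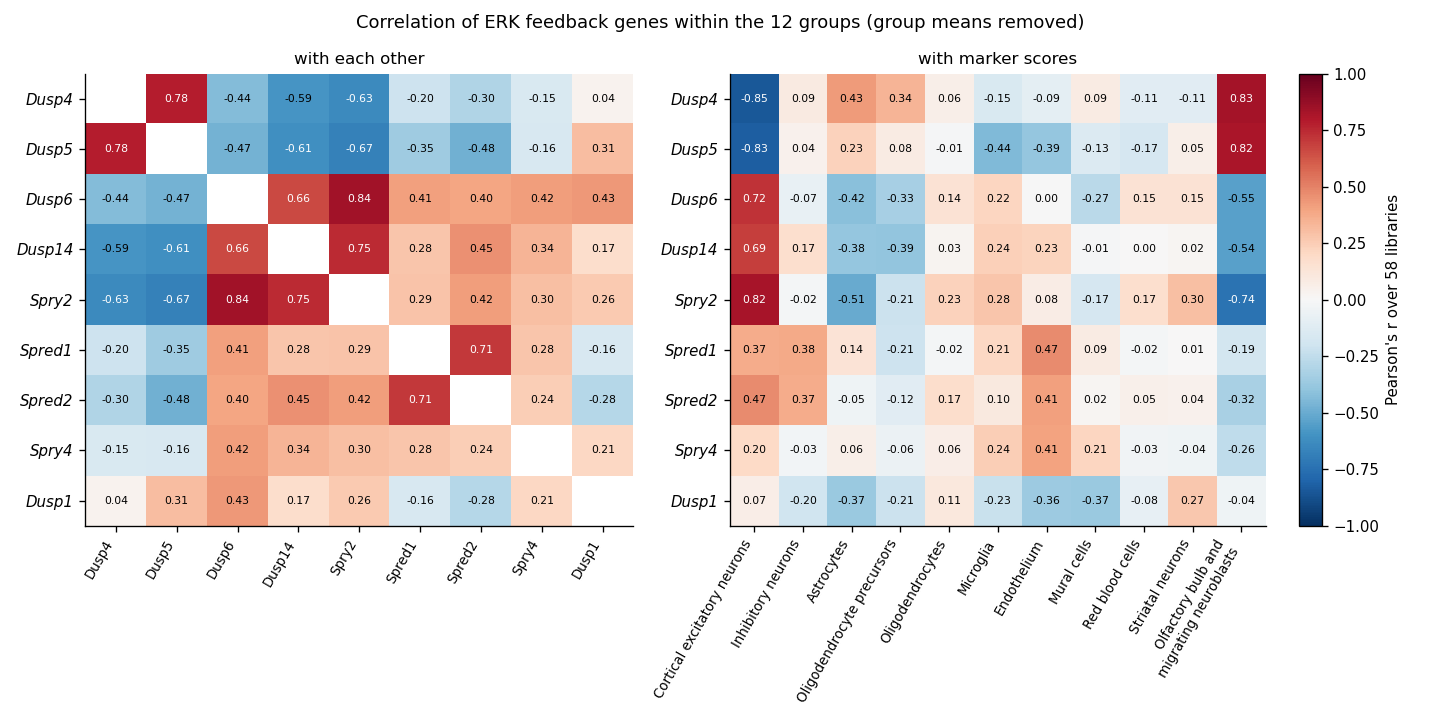
Pearson's r over 58 libraries after removal of the 12 group means, between the feedback genes on the left and between each gene and 11 marker scores on the right, with red for positive and blue for negative values. Dusp4 and Dusp5 are opposite in sign to Dusp6, Dusp14 and Spry2 on the left, and on the right for the cortical excitatory and olfactory bulb scores.

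The 2 sets tracked markers of tissue content. A score was made as the mean log2 value of the markers of each of 11 cell types or neighbouring tissues, and set against each gene, 99 relations in all. By r, 5 feedback genes were related to the score of olfactory bulb and migrating neuroblasts (Eomes, Cdhr1, Doc2g, Dlx1, Dlx2 and Dcx). Dusp4 (r = 0.83, rho = 0.85) and Dusp5 (r = 0.82, rho = 0.81) were positively related to it, and Spry2 (r = -0.74, rho = -0.77), Dusp6 (r = -0.55, rho = -0.52) and Dusp14 (r = -0.54, rho = -0.51) negatively. Adjusted p values were between 0.000124 and 0.00045 by r and at most 0.00145 by rho. Without the 2 extreme libraries r was 0.84, 0.79, -0.72, -0.54 and -0.51. Within the 27 libraries with Gm10221 reads it was 0.78, 0.79, -0.66, -0.40 and -0.36, and within the other 31 it was 0.89, 0.81, -0.78, -0.59 and -0.67. The score of cortical excitatory neurons gave the reverse, with r of -0.85 for Dusp4, -0.83 for Dusp5, 0.72 for Dusp6, 0.69 for Dusp14 and 0.82 for Spry2. Spred2 (r = 0.47, rho = 0.35) and Spred1 (r = 0.37, rho = 0.27) were also related to it by r, which makes 7 of 9 genes. Spred1 was not by rho (adjusted p = 0.164 by permutation). By r, 5 of 9 genes were related to endothelial markers (r of -0.39 to 0.47) and 4 of 9 to astrocyte markers (-0.51 to 0.43), and none to markers of oligodendrocytes or red blood cells. Over the 58 libraries Dusp1 (r = -0.04, rho = -0.05) and Spry4 (r = -0.26, rho = -0.24) were not related to the olfactory score (adjusted p = 0.932 and 0.191 by r). For Spry4 the 2 subsets were unlike, with an r of 0.04 in the 27 libraries with Gm10221 reads and -0.47 in the other 31. Its r with the cortical excitatory score was -0.19 and 0.47 in them. For Dusp1 the r with the olfactory score was -0.10 and -0.01. Dusp1 was negatively related to the scores of astrocytes (r = -0.37, rho = -0.37), endothelium (r = -0.36, rho = -0.37) and mural cells (r = -0.37, rho = -0.38), and Spry4 positively to that of endothelium (r = 0.41, rho = 0.38). Adjusted p values of these 4 relations lay between 0.0244 and 0.0389 by r and at 0.0382 by rho. In the libraries with and without Gm10221 reads r was -0.25 and -0.57, -0.15 and -0.57, -0.15 and -0.49, and 0.58 and 0.15, and without the 2 extreme libraries it was -0.39, -0.36, -0.36 and 0.35, in the order given. Their part in the drug differences was not tested.

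The summed level of the 6 olfactory and neuroblast markers varied widely. It ran from 2327 to 15743 reads in HT fluoxetine mice with a median of 5528, against 2874 to 16675 in HT vehicle mice with a median of 9231. In WT mice it ran from 2432 to 24715 under fluoxetine with a median of 4636, against 3021 to 12806 under vehicle with a median of 4917. None of the 6 passed in any drug comparison with vehicle, though all 6 were lower in HT fluoxetine mice (median -0.71) and all 6 higher in WT fluoxetine mice (median 0.18). None was at 0 throughout. With this score as a covariate, which was added after the data were seen, the SE of Dusp5 fell to 0.09, against 0.15 without it. Dusp5 then fell in both genotypes, by 0.43 ± 0.09 in HT and 0.32 ± 0.09 in WT mice (adjusted p = 0.00187 and 0.0458). Dusp6 likewise fell in both, by 0.28 ± 0.08 and 0.37 ± 0.08 (adjusted p = 0.0339 and 0.00675). Dusp1 and Spry4 kept differences of -0.77 ± 0.14 and -0.27 ± 0.06 in HT mice and -0.47 ± 0.14 and -0.37 ± 0.06 in WT mice, so that 4 of 9 genes fell in HT and 3 of 9 in WT mice. Calls over all 17925 genes in that fit numbered 761 in HT and 349 in WT mice, against 635 and 248 without the score. For lithium in WT mice Spry2 (0.19 ± 0.05, adjusted p = 0.00817) and Dusp4 (0.25 ± 0.08, adjusted p = 0.0262) then rose, and none passed in HT mice, beside 1931 genes called in WT and 3966 in HT mice in that fit. The markers of striatal neurons reached sums of 14518 and 13951 reads in single HT lithium and WT lithium mice. With their score as a covariate the calls against vehicle were those given first. For lithium against fluoxetine in WT mice the call of Spry2 was then lost (0.15, adjusted p = 0.189 in limma).

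**Figure D5:**
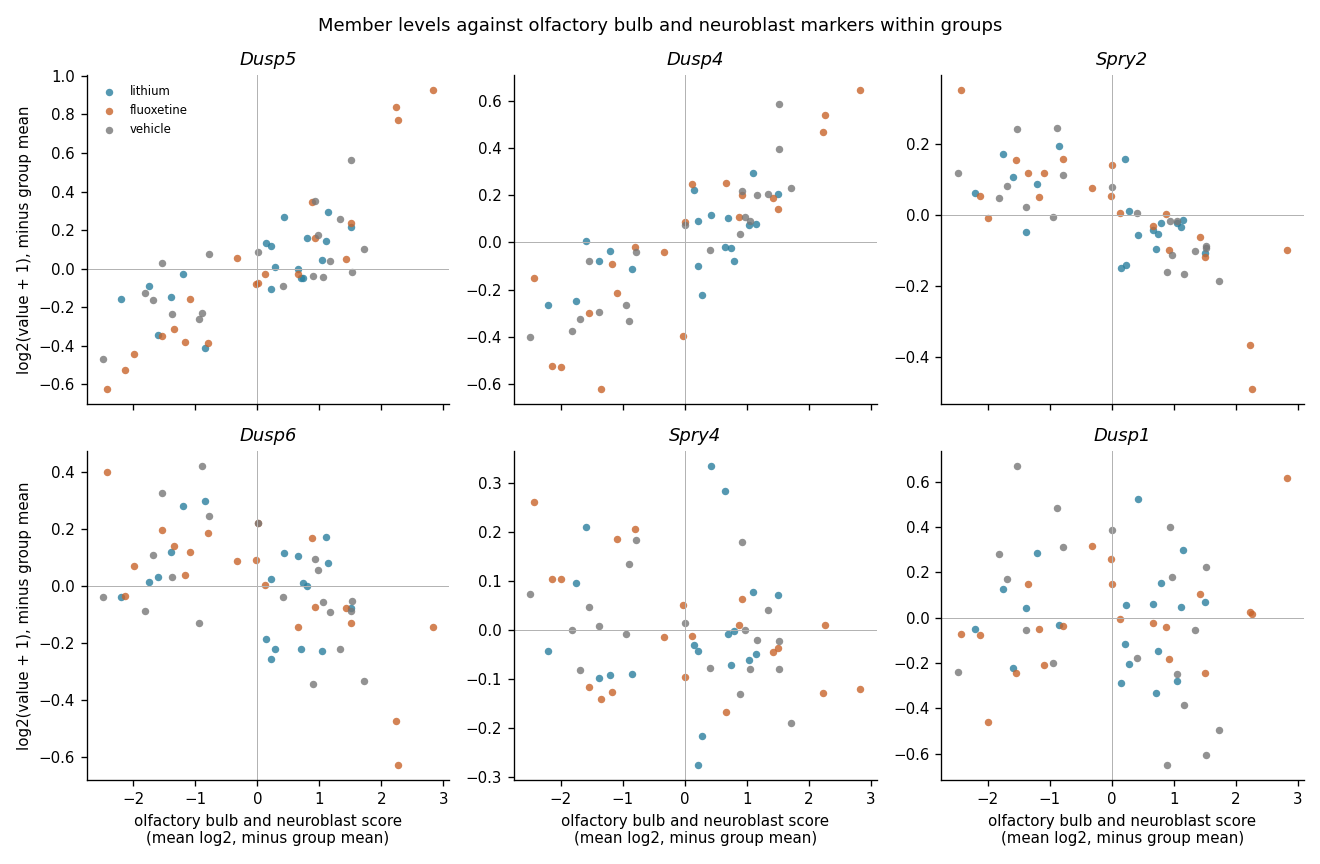
Values of 6 feedback genes (log2, minus the group mean, vertical axis) against the olfactory bulb and neuroblast score (mean log2, minus the group mean, horizontal axis), 1 point per mouse, coloured by drug. Dusp5 and Dusp4 rise with the score (r = 0.82 and 0.83), Spry2 falls (r = -0.74) and Dusp1 shows no relation (r = -0.04).

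For each gene the most similar of 13685 genes with a mean of at least 50 reads were sought by r over the 58 libraries, again without group means. Dusp1 was most like Junb (r = 0.87), Nr4a1 (0.87) and Arc (0.82), all from the rapid output list. Dusp4 was most like Myt1, Sox2ot and Mex3a (0.88 to 0.89), and Dusp5 like Ppp1cc (0.90) and Fam102b (0.89). Dusp6 was most like Gpm6a (0.81), Rab6a (0.80) and Neurod6 (0.79), the last of which is a marker of excitatory neurons. Spry2 was most like Snrpn, Lhx6 and Syt16 (0.88 to 0.89), and Dusp14 like Ly6e, Oscp1 and Olfm2 (0.81). Spry4 had weaker partners, Fgfrl1 (0.64), Stk40 (0.62) and Alkbh5 (0.56). Spred1 was most like Homer1 (0.84), a postsynaptic scaffold gene, and Spred2 like Gfod1 (0.74). Libraries share depth and tissue content, so these are descriptions.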

How the data were processed

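RNA from the prefrontal cortex of 58 mice was measured as strand-specific libraries, per the labels' protocols. The deposited values are a signal per gene, called normalized reads here. Their steps are those of gene counts scaled by 1 factor per library. Salmon 0.11.2, R 3.6.0, DESeq2 1.19.11 and GRCm38 are named, per the submitters' processing notes. In every column 100.0% of the values were whole multiples of a step within 0.01, which recovers whole reads. For 11 columns the step is close to 1, and rounding of the values would look the same. Recovered totals ran from 23270000 to 37800000 reads. Division by size factors hides a general shift in RNA content.

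Of 18088 gene identifiers, 18077 were matched to symbols in the GRCm38 annotation. All 58 sex labels matched Xist and Ddx3y. No library repeated another: over 1653 pairs the chi-square per degree of freedom was 3.15 or more.

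The design named limma for normalized values, and limma 3.58.1 with trend was run in R 4.3.3 on log2(value + 1), which understates the change of low genes. The filter required 10 normalized reads or more in 4 or more libraries. One fit held 12 groups of genotype, drug and sex, and contrasts weighed both sexes equally. The sign ± gives the SE of a log2 difference, or the SD of a mean level where so named. A gene was called with a two-sided Benjamini-Hochberg adjusted p under 0.05 over 17925 genes. Correlations used 100000 permutations within groups, two-sided, with Benjamini-Hochberg adjustment over 36 pairs of genes or 99 relations with marker scores. The fit was tested on simulated counts.

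The 9 genes and the lists were chosen with earlier results of these data known. All 9 are named, with up to 4 called genes of a list by smallest p, or 2 where none passed, and up to 3 of the most similar genes of each, of which 1 is not reported here. Egr1, and Nr4a1 in WT mice, fall outside that rule and were chosen after their values were seen. Alternatives were DESeq2 1.42.0 (Wald test) and edgeR 4.0.16 (quasi-likelihood) on recovered reads, other filters and pseudocounts, quantile normalization, only the groups compared, replicate numbers as a block, each sex alone, Gm10221 reads as a term, only libraries without them, and each library left out. Only libraries with Gm10221 reads, Spearman's rho and the covariates from markers of olfactory bulb and striatum were chosen after seeing the data.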

Additional observations from a re-analysis of the deposited data

Results flagged for a closer look

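Of 108 sets of 4 or 5 mice (9 genes in 12 groups of genotype, drug and sex), 10 held a mouse far from the others by Dixon's criterion, which chance alone meets in about 1 of 20 sets. Dusp5 held 5 of them. It had 322 normalized reads in HT fluoxetine male 3, against 124 to 175 in the other males of that group, and 311 in WT fluoxetine male 5, against 132 to 170. It had 352 in WT lithium male 2, against 285 to 297, and 305 in WT vehicle female 5, against 213 to 235. In WT vehicle male 2 it had 191, against 242 to 247. Dusp1 had 539 reads in HT fluoxetine female 5, against 382 to 426 in the other females, and 1035 in HT vehicle male 1, against 497 to 627. In 1 mouse, WT lithium female 4, both Sprouty genes stood high: Spry2 had 1142 reads, against 1026 to 1050 in the other females, and Spry4 had 521, against 420 to 449. Spred1 had 5383 reads in HT fluoxetine female 3, against 5842 to 5994. What sets these mice apart was not tested.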

How the results depend on the processing

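No called difference of a feedback gene changed sign under any alternative run, and the genotype comparisons and differences of effects called 0 of the 9 under each. Of 9 feedback genes, fluoxetine called 3 in HT and 2 in WT mice, lithium 0 and 0, and lithium against fluoxetine 2 in HT and 5 in WT mice. With only the groups compared, fluoxetine called 1 in WT mice and lithium 2 in WT mice. In females alone, fluoxetine called 1 in HT and 0 in WT mice, and lithium against fluoxetine 0 in HT and 3 in WT mice. In males alone, fluoxetine called 0 in HT and 0 in WT mice, and lithium against fluoxetine 0 in HT mice. With Gm10221 reads as a term, fluoxetine called 1 in WT mice and lithium against fluoxetine 0 in HT mice. Under that term the fluoxetine call of Spry4 in HT mice was lost as well (adjusted p = 0.153 in limma). Without libraries holding them, fluoxetine called 0 in HT and 1 in WT mice, and within those holding them, lithium against fluoxetine called 0 in HT mice. With the olfactory covariate, lithium called 2 in WT mice and lithium against fluoxetine 4 in HT mice. The cause was not tested.

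With 1 library left out, fluoxetine called 2 to 3 genes in HT and 1 to 3 in WT mice, and lithium against fluoxetine 1 to 3 in HT and 4 to 6 in WT mice. The comparison in HT mice gained Dusp4 without HT fluoxetine male 3 (adjusted p = 0.0314 in limma) and Spry4 without HT fluoxetine male 4, HT lithium female 5 or HT lithium male 3 (adjusted p between 0.0259 and 0.0492). In WT mice it gained Dusp4 without WT fluoxetine female 3 and Dusp14 without WT fluoxetine female 5 (adjusted p = 0.0438 and 0.0372).

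With the replicate number as a block the member counts stayed 3, 2, 0, 0, 2 and 5, with 706, 251, 2764, 1369, 1027 and 1693 genes called in all. Same-numbered mice had a mean correlation of deviations of 0.034 over 141 pairs, against -0.0056 over 560 pairs with different numbers. Both means are low, but a mean over all pairs cannot show whether some of the mice were paired. Sharing of a litter or batch within an arm was not tested.

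Over all genes, limma called 635, 248, 2919, 1339, 1121 and 1712 for fluoxetine in HT and WT mice, lithium in HT and WT mice, and lithium against fluoxetine in HT and WT mice. In the same order it called 237, 43, 709, 130, 33 and 341 in females alone, 22, 10, 597, 259, 314 and 778 in males alone, and 184, 129, 0, 3, 218 and 908 with Gm10221 reads as a term. Only the groups compared gave 158 for fluoxetine in WT mice, 1936 for lithium in WT mice and 377 for lithium against fluoxetine in HT mice. The olfactory covariate gave 761, 349, 3966, 1931, 1713 and 2486. Libraries without Gm10221 reads gave 96 and 140 for fluoxetine, and libraries with them 17 and 775 for lithium against fluoxetine.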
